A study of Arabidopsis thaliana with 48 samples.

Results

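Chloroplasts carry their own small genome, and the transcripts read from it were followed here in rosette leaves of Arabidopsis thaliana during high light. The members are the rows of the table of normalised read counts whose gene identifier starts with ATCG, the prefix of genes on the chloroplast genome, and whose mean over the 48 libraries is at least 10. They are 86 of 133 such rows, in a table of 32833 rows. The study compared plants labelled as a myb30 knockout, in which the gene of the transcription factor MYB30 is disrupted, with the wild type Col (Col-0, the reference line). Plants were 4 weeks old and were grown on soil in 10 h of light and 14 h of dark. In each line, leaves were taken at 0, 2, 8 and 30 min of high light, either local leaves, which receive the light in this kind of experiment, or systemic leaves, which do not. Each of the 16 groups of line, leaf and time has 3 libraries, each from a pool of 20 plants, so p-values measure the spread between pools. The allele behind the knockout is not given in the sources used here.

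The chloroplast genome encodes core subunits of the photosystems, of the cytochrome b6f complex, of the ATP synthase and of the NADH dehydrogenase-like complex, the large subunit of Rubisco, and part of the organelle's own ribosomes and RNA polymerase. Its genes are read by that plastid-encoded polymerase, which needs nucleus-encoded sigma factors to find promoters, and by a phage-type polymerase that is wholly nucleus-encoded. The primary transcripts are often polycistronic, and nucleus-encoded proteins process, stabilise and degrade them. In plastids a poly(A) tail marks RNA for decay, unlike the tail of a nuclear messenger.

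Plastid RNA was a very small part of what was sequenced. The libraries hold 70514715 to 89402096 reads in genes, and the members took 0.0408% to 0.0779% of them (median 0.0529%), or 29691 to 58734 reads per library. The extract was total RNA, and whether the libraries were selected for poly(A) RNA is not given in the sources used here, so each value below is the level of a transcript in such a library and not the amount of plastid RNA in a leaf. Of the 47 rows below the minimum, 38 averaged under 1 and 25 were at 0 in every library. In the TAIR10.1 reference, 31 of 129 annotated chloroplast gene entries have a sequence that occurs in 2 identical copies (each annotated copy is its own entry: 10 for protein genes, 14 for transfer RNA genes and 7 for ribosomal RNA genes). The one such gene that could be tied to a row, ATCG01310 (ribosomal protein L2), averaged 0.0203 normalised reads (reads divided by the library's size factor). Whether read counting lowered the rows of the other duplicated genes was not tested. The lowest member, ATCG00050, averaged 10.5, and the highest row just outside averaged 6.78.

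The deposited table and the reference annotation do not pair most ATCG identifiers with gene names. By notes in the annotation, 5 of the 86 members are given here with a name: ATCG00670 (plastid-encoded CLP P, the proteolytic subunit of the Clp protease), ATCG00660 (ribosomal protein L20), ATCG00530 (a CemA-like proton extrusion protein), ATCG00430 and ATCG00420. For ATCG00430 the only name found is photosystem II reaction center protein G, in an annotation entry listing it as the best match of AT5G11770. That nuclear protein is itself annotated as a subunit of the mitochondrial NADH-ubiquinone oxidoreductase, so the name is doubtful and no role is given to ATCG00430 here. ATCG00420 is known through a nuclear pseudogene, AT4G13285, which is annotated as a pseudogene of ATCG00420 and which shares sequence with ndhJ, a subunit gene of the NADH dehydrogenase-like complex, and with no other chloroplast gene. All other members are given by identifier, without a role.

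The stretch behind that assignment is shown because it ties the identifier to its gene. The capitals mark a run of 32 bases that is identical in both sequences, 5′ to 3′, from the TAIR10.1 reference, Pltd:49000-49061 on the minus strand (inside the ndhJ coding sequence) and chr4:7738693-7738754 on the plus strand.
ndhJ: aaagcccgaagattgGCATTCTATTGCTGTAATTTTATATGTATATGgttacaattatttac
AT4G13285: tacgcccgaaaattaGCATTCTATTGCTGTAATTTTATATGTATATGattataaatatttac
Of the 428 words of 50 bases in ndhJ (Pltd:48677-49153, minus strand), 0 recur in the nuclear or mitochondrial genome. The same count was 0 of 305 for rpl20 (Pltd:68512-68865, minus strand), 0 of 1924 for clpP (Pltd:69910-71882, minus strand) and 0 of 641 for cemA (Pltd:60741-61430, plus strand). Over the whole chloroplast genome, 2.43% of such words recur in the nuclear genome and 1.21% in the mitochondrial genome.

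The members differed widely in level. Mean values ran between 10.5 and 7510 normalised reads, with a median of 143, against a median of 926 over all 19556 tested genes. The 2 most abundant members, ATCG00020 and ATCG00490, held 33.5% of the summed members, and the 10 most abundant held 63.0%. These values are not per length, so they order reads and not transcript numbers.

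The summed level of the members was highest in the local leaves of Col at 30 min. In myb30 local leaves the sum was 48053, 53383 and 46258 normalised reads at 30 min, against 33552, 36758 and 36370 at 0 min. In Col local leaves it was 68920, 61026 and 75736 at 30 min, against 35255, 38744 and 38597 at 0 min. In both lines the 30 min libraries lay above all 0 min libraries, and all 3 Col libraries at 30 min lay above all 3 of myb30. In systemic leaves, myb30 had 34479, 41177 and 34717 at 30 min and 35973, 32188 and 40276 at 0 min, which overlap. Col had 45304, 43842 and 46918 in systemic leaves at 30 min, against 33452, 32104 and 37540 at 0 min, without overlap. The group mean at 30 min was 1.38 times that at 0 min in myb30 local leaves and 1.83 times in Col local leaves. In systemic leaves it was 1.02 times in myb30 and 1.32 times in Col. These values rest on the size factors, which were only 0.776 to 0.844 in Col local leaves at 30 min. As a percent of reads in genes, the mean was 0.0569 at 30 min against 0.0461 at 0 min in myb30 local leaves. It was 0.0722 against 0.0501 in Col local leaves. In systemic leaves it was 0.0495 against 0.0483 in myb30 and 0.0591 against 0.0453 in Col.

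**Figure D1:**
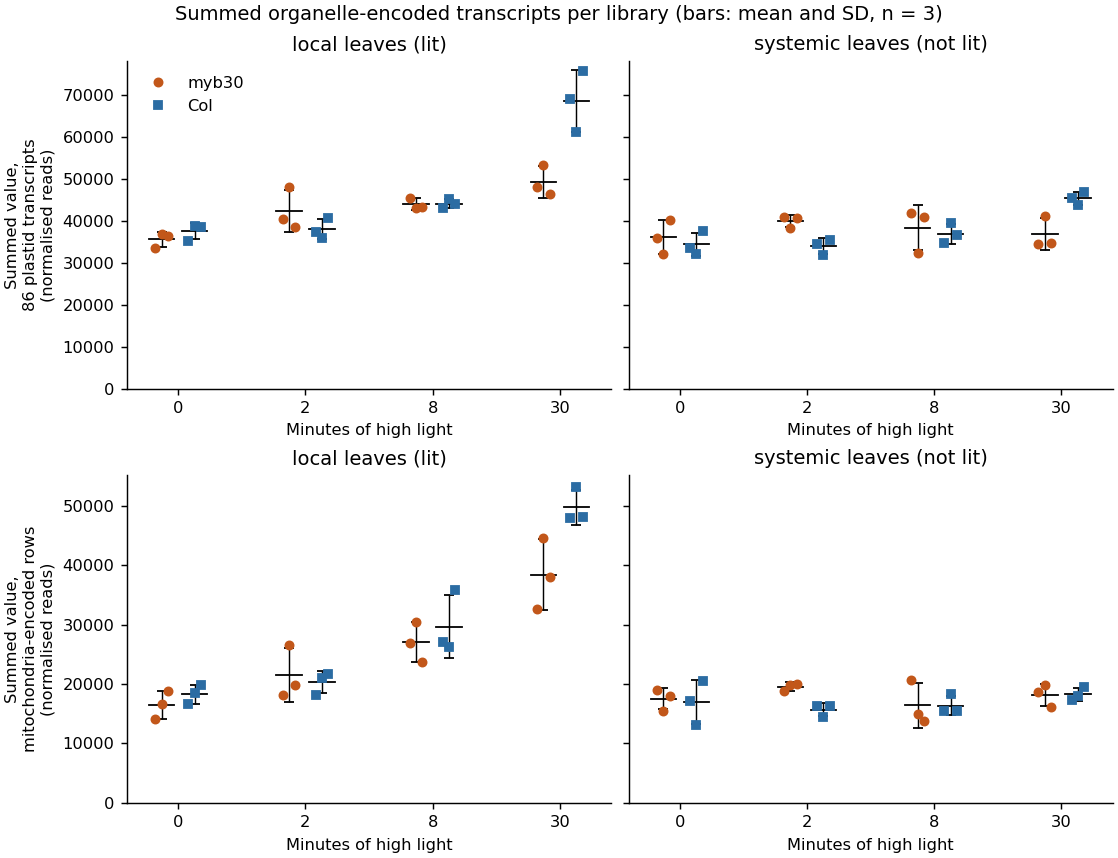
Summed normalised reads of the 86 plastid transcripts (top) and of the mitochondria-encoded rows (bottom) against minutes of high light, in local (left) and systemic (right) leaves, with 1 point per library (myb30 circles, Col squares) and the mean and SD of 3 libraries as bars. The plastid sum of Col local leaves at 30 min, 61026 to 75736, stands above every other group, and the mitochondrial sum rises in local leaves of both lines and not in systemic leaves.

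Transcripts of the other organelle moved in the same local leaves. The summed value of the mitochondria-encoded rows at 30 min was 2.32 times its 0 min mean in myb30 local leaves and 2.72 times in Col local leaves. In systemic leaves it was 1.04 times in myb30 and 1.08 times in Col. These values rest on the size factors too. As a percent of reads in genes, the mean was 0.0443 at 30 min against 0.0214 at 0 min in myb30 local leaves. It was 0.0525 against 0.0244 in Col local leaves. Of 42 mitochondrial rows tested, 41 were called higher at 30 min in myb30 local leaves and 42 in Col local leaves, with median log2 changes of 1.38 and 1.90. Their part in the plastid result was not tested. Among marker lists of leaf cell types, the summed guard cell markers (3 genes) also moved with time in local leaves: 2729 to 2912 at 30 min against 4317 to 5077 at 0 min in myb30, and 2521 to 2715 at 30 min against 4759 to 5495 at 0 min in Col. The summed epidermis markers (3 genes) moved likewise, with 18698 to 20879 at 30 min against 26268 to 32070 at 0 min in myb30, and 18513 to 22740 at 30 min against 25449 to 32276 at 0 min in Col. The summed vascular markers (3 genes) were 9563 to 12930 at 30 min against 13495 to 15362 at 0 min in myb30, and overlapped in Col. The summed mesophyll markers (5 genes) overlapped between 30 and 0 min in both lines, at 2737611 to 3544123 over all libraries. The root markers PHT1.1 and NRT2.1 and the pollen marker LAT52-like stayed at or under 7.51 in all libraries. The part of these cell types in the plastid result was not tested. In a lower sum, fewer cells, less RNA per cell and a change of the marker transcripts alone cannot be told apart. Single genes weigh most in the epidermis, vascular and guard cell sums, by their medians over all libraries. These are FDH for epidermis (17208, against 7943 for ATML1 and 65.8 for PDF1) and SUC2 for vascular cells (11748, against 1664 for HB8 and 446 for SULTR2.2). For guard cells it is KAT1 (2815, against 984 for FAMA and 669 for MYB60).

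Several facts bear on single libraries. MYB30 itself (AT3G28910) was still read in the knockout, but every myb30 library lay below every Col library in 6 of 8 matched groups of leaf and time. In local leaves it had 385 to 481 normalised reads in myb30 against 544 to 775 in Col at 0 min, and 176 to 219 in myb30 against 244 to 322 in Col at 30 min. In systemic leaves at 30 min it had 469 to 543 in myb30 against 701 to 754 in Col. The lines overlapped in systemic leaves at 0 min, with 527 to 818 in myb30 against 416 to 752 in Col, and at 2 min, with 344 to 800 in myb30 against 787 to 831 in Col. Library 3 of myb30 systemic leaves and library 3 of Col systemic leaves at 0 min each lay nearer to the other line in all 8 genes that part the lines elsewhere, and both are named as libraries in doubt below. At 0 min, 3 libraries (myb30 systemic 3, Col local 3 and Col systemic 1) had 3317, 1897 and 496 normalised reads of the stress gene WRKY40, against 34 to 61 in the other 9. In 6 Col libraries titled as 30 min the time field reads 0 min, and the titles were used.

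After 30 min of high light most members rose in local leaves of Col. Of 86 members, 52 were called higher and 0 lower at 30 min than at 0 min (limma, adjusted p under 0.05 over all tested genes), against 27.2% called higher and 26.5% called lower among all tested genes. The median log2 change was 0.60 over the members and 0.00 over all tested genes, and 80 members were above 0. Fits by edgeR and by DESeq2 each called 51 higher and 1 lower. For 56 members every 30 min library lay above every 0 min library, against 30.1% of all tested genes, and for 1 member below, against 29% of all tested genes. The rise was seen at every level of abundance, with 18 of the 29 most abundant members, 20 of the next 29 and 14 of the 28 least abundant called higher.

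The most abundant member showed it most firmly. ATCG00020 had 15216, 13701 and 18049 normalised reads at 30 min, against 6023, 6325 and 6055 at 0 min, in Col local leaves. The lowest 30 min library was more than 2 times the highest 0 min library. Its log2 change was 1.34 ± 0.12 (SE; adjusted p = 8.34e-12, limma), 2.54 times in linear terms, and its share of the summed members had a median of 22.5% at 30 min and 16.3% at 0 min. ATCG00410, the member with the highest log2 change, is scarce, with 17.8, 26.3 and 38.7 at 30 min against 7.06, 9.50 and 11.7 at 0 min, and its log2 change was 1.42 ± 0.36 (SE; adjusted p = 0.00126, limma). The 3 libraries of ATCG00410 at 30 min lie far apart, but all above those at 0 min.

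The rise in local leaves of myb30 was called for fewer members. At 30 min 29 members were called higher and 2 lower than at 0 min, against 22.5% and 21.6% of all tested genes, with a median log2 change of 0.34 over the members and -0.00 over all tested genes. ATCG00020 had 9587, 12500 and 9604 normalised reads at 30 min in myb30 local leaves, against 5423, 5820 and 6136 at 0 min, a log2 change of 0.86 ± 0.12 (SE; adjusted p = 2.71e-07, limma). The groups do not overlap, and the second library stands above the other 2. ATCG00290 had 41.1, 50.5 and 45.9 at 30 min against 16.3, 23.3 and 25.8 at 0 min (log2 change 1.06 ± 0.22, SE; adjusted p = 1.35e-04, limma). The 2 members called lower were ATCG00770 (log2 change -0.42) and ATCG00190 (-0.25), and for ATCG00190 the libraries of the 2 times overlap. For 38 members every 30 min library lay above every 0 min library, against 25.4% of all tested genes, and for 2 below, against 24.2%. Without the second myb30 local 30 min library, 18 were called higher and 1 lower.

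**Figure D2:**
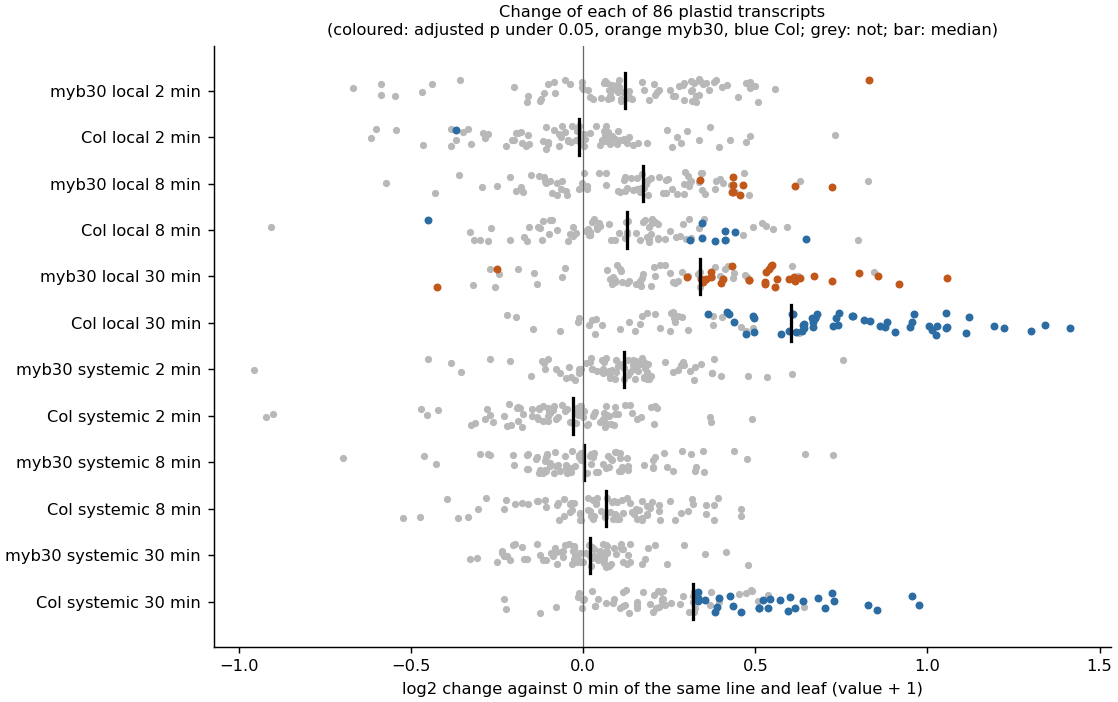
Log2 change of each of the 86 plastid transcripts against 0 min of the same line and leaf, with 1 row per line, leaf and time, called members coloured (myb30 orange, Col blue), others grey, and a bar at the median. The medians lie at 0.34 and 0.60 for local leaves of myb30 and Col at 30 min, and at 0.02 and 0.32 for systemic leaves of myb30 and Col at 30 min.

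The scaling of the libraries sets part of this count in local leaves. With each library scaled to the same nuclear read total in place of its size factor, the median of all tested genes moved by -0.16 at 30 min in myb30 local leaves and by -0.34 in Col local leaves. Under that scaling 12 members were called higher and 4 lower in myb30, with a median log2 change of 0.18, and 29 higher and 4 lower in Col, with a median of 0.27. Relative to the summed members themselves, 4 were called higher and 18 lower in myb30 local leaves at 30 min, and 6 higher and 39 lower in Col. Under that last scaling a member counts as higher where it rose more than the sum, which the most abundant members dominate. The shares of all tested genes called under either scaling are not given here, so these counts are not read as particular to the members.

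Of the 5 members given with a name, the ndhJ row and ATCG00430 were called higher in local leaves at 30 min in both lines. ATCG00420, the ndhJ row, had 268, 269 and 261 normalised reads at 30 min in myb30 local leaves, against 187, 205 and 159 at 0 min. In Col local leaves it had 257, 268 and 276 at 30 min, against 177, 204 and 187 at 0 min. In both lines every 30 min library lay above every 0 min library. The log2 changes of ATCG00420 were 0.54 ± 0.12 in myb30 (adjusted p = 3.34e-04, limma) and 0.50 ± 0.12 in Col (SE; adjusted p = 7.03e-04, limma). Scaled to the nuclear total, the Col change was 0.16 and was no longer called.

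ATCG00430 changed by 0.48 ± 0.16 in myb30 (SE; adjusted p = 0.0137, limma) and by 0.42 ± 0.16 in Col local leaves (SE; adjusted p = 0.0275, limma). Its myb30 call was lost without the first 0 min library (0.37) or the third 30 min library (0.42), and its Col call without the first (0.35) or second (0.37) 0 min library or the third 30 min library (0.37). Scaled to the nuclear total, neither change was called (0.32 in myb30 and 0.08 in Col). The other 3 were not called at 30 min in local leaves of either line. ATCG00660, the ribosomal protein L20 row, had 92.9, 90.4 and 80.0 normalised reads at 30 min against 58.1, 84.0 and 54.5 at 0 min in myb30 (log2 change 0.44, adjusted p = 0.0777, limma), and 101, 71.7 and 82.5 at 30 min against 52.4, 65.5 and 66.1 at 0 min in Col (0.46, adjusted p = 0.0557, limma). ATCG00670, the Clp protease row, had a log2 change of 0.26 in myb30 and 0.13 in Col. The CemA-like row, ATCG00530, had 0.20 in myb30 and 0.21 in Col.

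**Figure D3:**
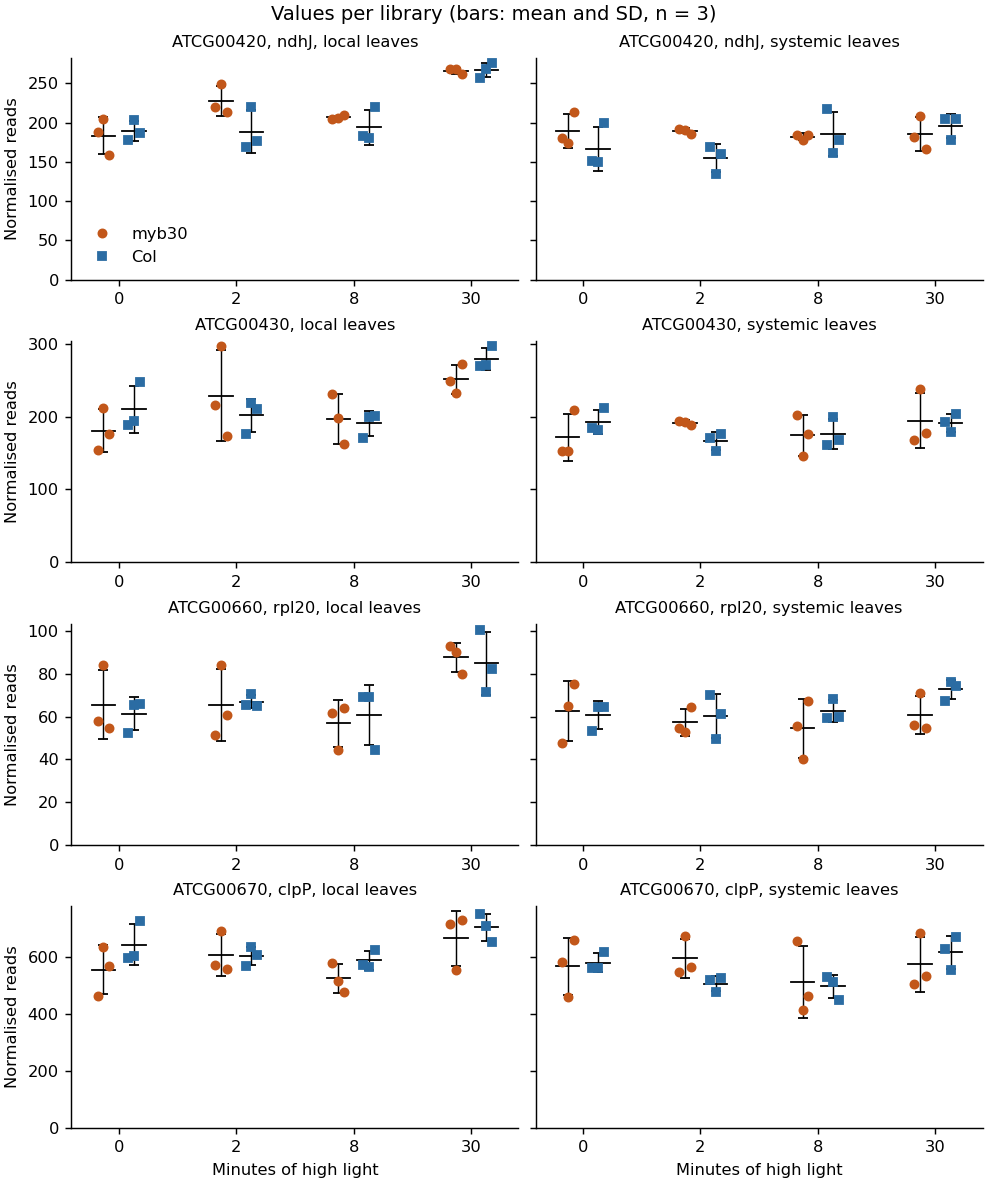
Normalised reads per library of 4 of the members that the reference annotation names, against minutes of high light in local (left) and systemic (right) leaves, with the mean and SD of 3 libraries as bars (myb30 circles, Col squares). The ndhJ row reaches 261 to 269 in myb30 and 257 to 276 in Col local leaves at 30 min, while the Clp protease row overlaps between 30 and 0 min in every panel.

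Few members had changed at the earlier times. At 2 min in local leaves, 1 member was called higher in myb30 (ATCG00290, log2 change 0.83; 1.48% of all tested genes were called higher and 0.179% lower; 2 members with the replicate number as a block, whose libraries deviated together here), and 1 was called lower in Col (ATCG00190, -0.37; 5.92% were called higher and 4.75% lower). Neither stood when a single library was left out: ATCG00290 was not called without any one of 5 of its 6 libraries (the third at 2 min excepted), and ATCG00190 not without the second (-0.32) or the third (-0.30) Col library at 0 min or the third at 2 min (-0.33). At 8 min in local leaves, 9 members were called higher and 0 lower in myb30 (9.48% and 9.25% of all tested genes), and 8 higher and 1 lower in Col (13.3% and 12.7%). ATCG00020 had 8795, 8776 and 9001 normalised reads in myb30 local leaves at 8 min against 5423, 5820 and 6136 at 0 min, and 7954, 8389 and 8629 in Col at 8 min against 6023, 6325 and 6055 at 0 min. Its log2 changes at 8 min were 0.61 in myb30 (adjusted p = 3.40e-04, limma) and 0.44 in Col (adjusted p = 0.00639, limma), with no overlap in either line. The Col count at 8 min was 5 without the first or the third 0 min library or the second 8 min library. The mitochondrial rows were ahead of the members at this time, with 32 of 42 called higher in myb30 and 34 in Col.

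ATCG00190 stood against the trend in Col. It had 607, 676 and 618 normalised reads in local leaves at 8 min and 741, 747 and 738 at 30 min, against 735, 926 and 953 at 0 min. At 8 min all 3 libraries lay below all 0 min libraries (log2 change -0.45 ± 0.10, SE; adjusted p = 0.00101, limma), and at 30 min the change was -0.22 (adjusted p = 0.0587, limma). Its median share of the summed members was 1.07% at 30 min and 2.39% at 0 min in Col local leaves, and 1.37% and 2.19% in myb30 local leaves.

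In systemic leaves the members rose at 30 min in Col, while none was called in myb30. In Col, 29 members were called higher and 0 lower at 30 min than at 0 min, against 17.7% and 17.0% of all tested genes, with a median log2 change of 0.32. For 36 members every 30 min library of Col lay above every 0 min library, against 21.3% of all tested genes, and for 0 below, against 20.8%. In myb30, 0 members were called by limma, edgeR or DESeq2 at 30 min, against 5.87% called higher and 5.75% called lower among all tested genes, and 1 member had an unadjusted p under 0.05. The median log2 change in myb30 was 0.02. The Col count was 19 without the third 30 min library, 26 without both libraries in doubt, 21 with them exchanged and 22 without the 3 outlying 0 min libraries. The mitochondrial rows in Col systemic leaves had 5 of 42 called higher, with a median of 0.16, and scaling to the nuclear total shifted the median of all genes by -0.01.

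Of the members in Col systemic leaves, 2 with high changes are shown. ATCG01050 had 403, 406 and 384 in myb30 systemic leaves at 30 min, against 305, 351 and 397 at 0 min, which overlap (log2 change 0.19, adjusted p = 0.601, limma). In Col systemic leaves it had 601, 544 and 524 at 30 min, against 317, 319 and 232 at 0 min (log2 change 0.95 ± 0.18, SE; adjusted p = 1.14e-04, limma). ATCG01070 had the highest change there, 128, 152 and 144 in Col systemic leaves at 30 min against 84.3, 84.2 and 50.8 at 0 min (0.97 ± 0.21, SE; adjusted p = 3.28e-04, limma). For both, the third 0 min library of Col, one of the libraries in doubt, was the lowest of its group. At 2 and 8 min, 0 members were called in systemic leaves of either line by limma or edgeR or DESeq2. At 2 min, 8 members in myb30 and 4 in Col had an unadjusted p under 0.05, and 0 and 6.36% of all tested genes were called higher, 0 and 5.48% lower. At 8 min the numbers were 5 in myb30 and 4 in Col, with 0.747% and 11.1% of all tested genes called higher and 0.133% and 11.4% lower. These shares are at the adjusted p. Those at an unadjusted p are not given here, so the counts at an unadjusted p stand without a baseline.

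At 30 min many members were called higher in local leaves than in systemic leaves taken at the same time, but in Col the median difference was above 0 before the light. In myb30, 24 members were called higher and 1 lower in local than in systemic leaves at 30 min (20.6% and 21.3% of all tested genes), with a median log2 difference of 0.30. In Col, 39 were called higher and 1 lower (25.0% and 25.4% of all tested genes), with a median of 0.40. ATCG00020 had 9587, 12500 and 9604 normalised reads in local leaves against 5751, 6438 and 5314 in systemic leaves of myb30 (0.85 ± 0.12, SE; adjusted p = 3.19e-07, limma), and 15216, 13701 and 18049 against 7985, 8299 and 8598 in Col (0.91 ± 0.12, SE; adjusted p = 6.02e-08, limma). Neither pair of groups overlaps. The ndhJ row, ATCG00420, was higher in local leaves by 0.52 in myb30 and by 0.45 in Col, both called.

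The difference between leaves depended on the scaling. Scaling to the nuclear total moved the median of all tested genes by -0.21 in myb30 and -0.30 in Col at 30 min, and then 5 members were called higher and 4 lower in myb30, and 9 higher and 2 lower in Col. The shares of all tested genes called under that scaling are not given here. The myb30 count of 25 was 16 without the first and 13 without the second local library at 30 min, and 14 without the first systemic library at 30 min. At 0 and 2 min, 0 members were called between the leaves of either line by limma, edgeR or DESeq2. In Col the median difference was already 0.15 at 0 min, 0.19 at 2 min and 0.28 at 8 min. There 70 of 86 members were above 0 at 0 min and 77 at 2 min. In myb30 the medians were -0.01, 0.01 and 0.10 at these times, with 36 members above 0 at 0 min and 44 at 2 min. At 0 min 1 member of myb30 and 9 of Col had an unadjusted p under 0.05, and at 2 min 6 of myb30 and 13 of Col. At the adjusted p, 0 of all tested genes were called in either direction in either line at 0 min. At 2 min 0.0307% in myb30 and 0.0716% in Col were called higher, and 0.0102% and 0.0614% lower. The shares of all tested genes at an unadjusted p are not given here.

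At 8 min the libraries of the 2 leaves with the same number deviated together in both lines, so a fit with those pairs as a block was set beside the unpaired one. In myb30, 0 members were called at 8 min without the block by limma and edgeR, and 1 by DESeq2. Of the members, 13 had an unadjusted p under 0.05, a count without a share of all tested genes beside it. At the adjusted p, 2.31% of all tested genes were called higher and 1.61% lower. With the block, 3 members were called higher and 1 lower. In Col, 8 were called higher and 1 lower without the block (5.57% and 4.81% of all tested genes), and 17 higher and 2 lower with it. The shares of all tested genes with the block are not given here, so the added calls are not read as particular to the members. Without single libraries the unpaired Col count was 2 (without library 2 of local leaves), 5 (without library 3 of local leaves) or 1 (without library 1 of systemic leaves). ATCG01010 had the highest difference in Col, 85.5, 83.7 and 82.4 normalised reads in local leaves against 38.7, 57.7 and 48.3 in systemic leaves at 8 min (0.80 ± 0.20, SE; adjusted p = 0.00620, limma), and was not called without the first systemic library (0.66).

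Between the lines, the members were lower in myb30 than in Col in local leaves at 30 min. There, 19 members were called lower in myb30 and 0 higher, which is 22.1% of the members, against 1.16% called lower and 0.256% called higher among all tested genes. The median log2 difference was -0.36 over the members and -0.00 over all tested genes. Fits by edgeR and DESeq2 gave 19 lower each. For 37 members every myb30 library lay below every Col library, against 9.69% of all tested genes, and for 0 above, against 8.28%. Of the 19, 15 were among the 29 most abundant members, 2 among the next 29 and 2 among the 28 least abundant. The median log2 differences of these parts were -0.45, -0.37 and -0.31, so the shift was not confined to abundant members. Of the 42 mitochondrial rows 1 was called lower in myb30, with a median of -0.48, and its part in the result was not tested.

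ATCG01050 differed most, with 416, 452 and 292 normalised reads in myb30 local leaves at 30 min against 764, 571 and 839 in Col (log2 difference -0.91 ± 0.18, SE; adjusted p = 0.00387, limma). ATCG00490, the second most abundant member, had 7399, 8664 and 6835 in myb30 against 12637, 10791 and 13960 in Col (-0.71 ± 0.12, SE; adjusted p = 4.92e-04, limma). Neither gene overlaps between the lines. The 5 members given with a name were not among the 19: the ndhJ row, ATCG00420, had 268, 269 and 261 in myb30 against 257, 268 and 276 in Col (difference -0.00 ± 0.12, SE).

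**Figure D4:**
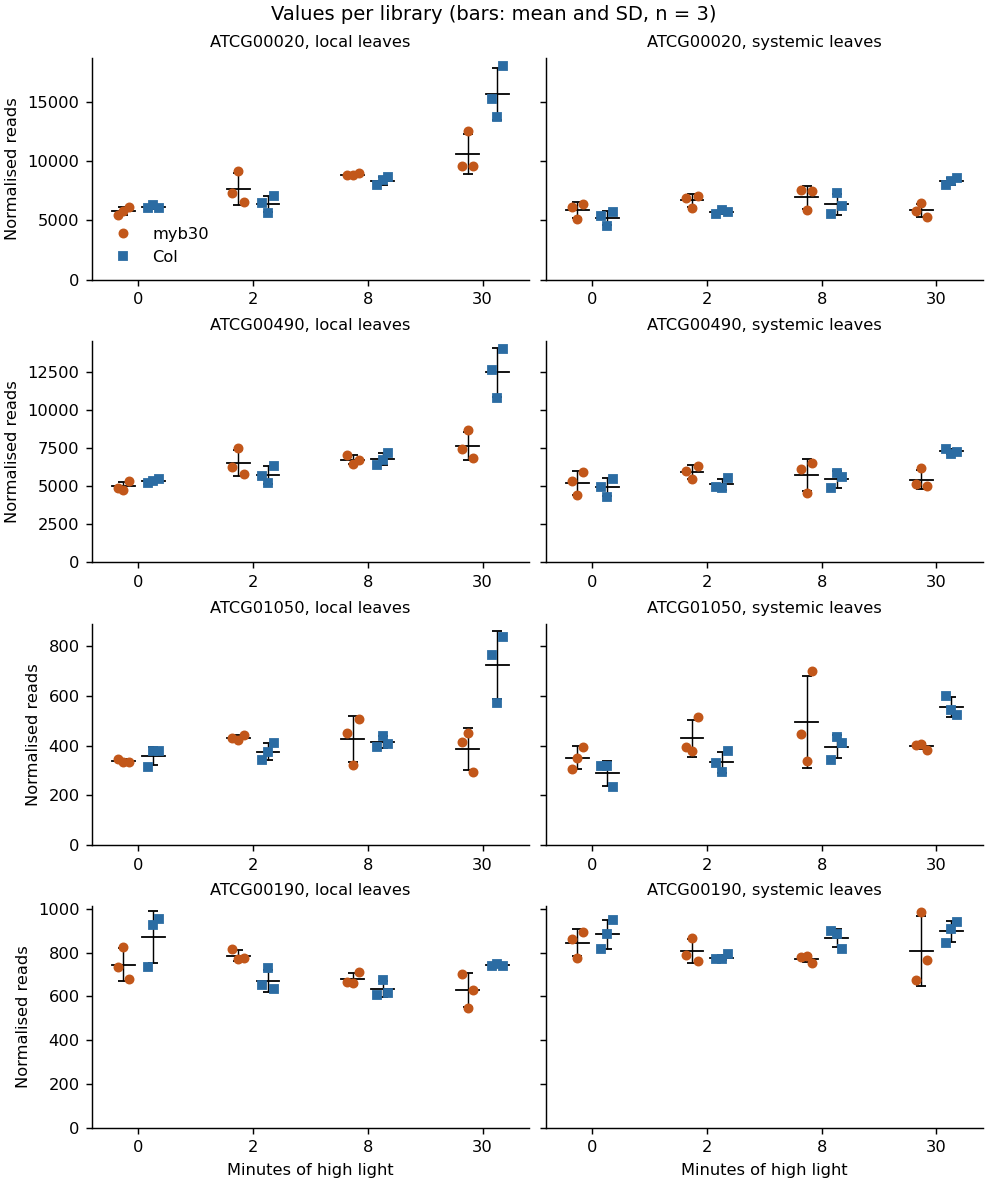
Normalised reads per library of ATCG00020, ATCG00490, ATCG01050 and ATCG00190 against minutes of high light in local (left) and systemic (right) leaves, with the mean and SD of 3 libraries as bars (myb30 circles, Col squares). In local leaves at 30 min the myb30 values of ATCG00490, 6835 to 8664, lie below the Col values, 10791 to 13960, while ATCG00190 does not rise in either line.

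The count of 19 changed with the libraries and the fit used. It was 9 without the first and 7 without the third myb30 local library at 30 min, 9 without the first and 5 without the third Col local library at 30 min, 0 when the first or the third libraries of all groups were left out, 22 when the second libraries of all groups were left out, and 0 when the 6 compared libraries were fitted alone. Scaled to the nuclear total, under which the median over all genes shifted by 0.13, 10 members were called lower and 0 higher. Relative to the summed members, 17 were called higher and 4 lower in myb30. For neither scaling is the share of all tested genes called given here.

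In local leaves at 30 min, 27 members were called higher in both lines, which is 93.1% of the 29 called in myb30 and 51.9% of the 52 called in Col. Of all 86 members, 33.7% were called higher in myb30 and 60.5% in Col. The share of all tested genes called higher in both lines was not computed, so the overlap is not read as particular to the members. A test of the difference between the lines' changes over 0 to 30 min called 0 of 86 members by limma and edgeR and 1 lower by DESeq2. In that test 23 members had an unadjusted p under 0.05, and the median difference was -0.26. Among all tested genes 0.251% were called lower and 0.0256% higher at the adjusted p, which is no baseline for the 23. Leaving out the second myb30 local library at 30 min gave 4 called lower, and leaving out the second Col local library at 30 min gave 1. In systemic leaves the same test called 1 member lower and 0 higher (0.0409% and 0.102% of all tested genes), ATCG00620, and 26 members had an unadjusted p under 0.05. The median difference there was -0.31, with 12 of 86 members above 0, and DESeq2 called 3 lower. At 2 and 8 min the test called 0 members in local and systemic leaves by limma, edgeR and DESeq2, and 0 of all tested genes. The members at an unadjusted p under 0.05 numbered 5, 1, 3 and 1 (local 2 and 8 min, then systemic 2 and 8 min). For none of these tests is the share of all tested genes at an unadjusted p given here.

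**Figure D5:**
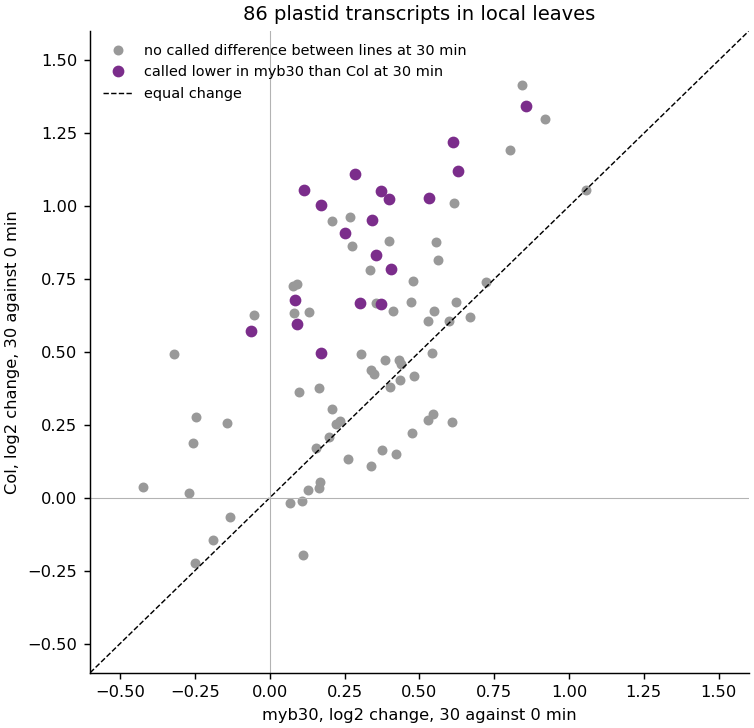
Log2 change at 30 min in local leaves of each of the 86 plastid transcripts, in myb30 (horizontal axis) and Col (vertical axis), with purple points for the 19 members called lower in myb30 than in Col at 30 min and a dashed line where both lines change equally. All 19 purple points lie above the dashed line. They were chosen by the same 30 min values that both axes use, so their place is no separate support. The test of the difference between the lines' changes called 0 of 86 members by limma.

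In systemic leaves at 30 min, 1 member was called lower in myb30 than in Col and 0 higher (0.215% and 0.511% of all tested genes). It was ATCG00020, with 5751, 6438 and 5314 normalised reads in myb30 against 7985, 8299 and 8598 in Col (-0.51 ± 0.12, SE; adjusted p = 0.0276, limma), and the groups do not overlap. The call was lost without the first (-0.50) or the third (-0.45) myb30 library or without any of the 3 Col libraries (-0.54, -0.51 and -0.49), while 5 members were called without the second myb30 library. DESeq2 called 4. The median difference over the members was -0.22. At 0, 2 and 8 min, 0 members differed between the lines in either leaf by limma or edgeR, and DESeq2 called 1 in systemic leaves at 8 min. The members with an unadjusted p under 0.05 numbered 6, 6 and 2 in local leaves and 6, 29 and 9 in systemic leaves at 0, 2 and 8 min. At 2 min in systemic leaves 79 of 86 members were higher in myb30, with a median of 0.29. At the adjusted p, 0, 0.317% and 0% of all tested genes were called higher and 0.0102%, 0.0562% and 0.0153% lower in local leaves. In systemic leaves 0, 0.0358% and 0.00511% were called higher and 0, 0.0409% and 0.00511% lower. The shares at an unadjusted p are not given here, so the 29 and the other counts at an unadjusted p stand without a baseline.

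Genes of the nucleus-encoded machinery that reads the chloroplast genome were called in both directions in local leaves at 30 min, at shares near those of all tested genes. A list of 20 genes held the 6 sigma factors, the phage-type polymerases RPOTp and RPOTmp and 12 proteins that associate with the plastid-encoded polymerase (PAP1 to PAP12). In local leaves at 30 min, 6 were called higher and 4 lower in myb30, where 22.5% of all tested genes were called higher and 21.6% lower. In Col, 5 were called higher and 6 lower, where 27.2% of all tested genes were called higher and 26.5% lower. SIG5, a sigma factor known to be induced by light and stress, averaged 68611 ± 3098 normalised reads at 30 min against 29584 ± 7206 at 0 min in myb30 local leaves (SD, n = 3 each), a log2 change of 1.24 (limma, adjusted p = 1.27e-07). In Col local leaves SIG5 averaged 66871 ± 2580 at 30 min against 26089 ± 3578 at 0 min (SD, n = 3 each; log2 change 1.37; limma, adjusted p = 1.40e-08). RPOTp, the polymerase of plastids, rose by 0.57 in myb30 and 0.47 in Col. The log2 change of SIG1 was -0.27 in myb30 and -0.25 in Col, and that of PAP2 was -0.29 in myb30 and -0.41 in Col, all called.

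In systemic leaves of Col at 30 min the same list had 8 genes called higher and 3 lower, where 17.7% of all tested genes were called higher and 17% lower, and SIG5 moved the other way. It averaged 12600 ± 327 at 30 min against 23462 ± 4378 at 0 min (SD, n = 3 each; log2 change -0.88; limma, adjusted p = 9.68e-05). PAP3 and PAP7 rose by 0.78 and 0.39. In myb30 systemic leaves 1 gene of the list was called, SIG3, with a log2 change of -0.16. No gene of the list was called between the lines in local or systemic leaves at 30 min, by limma. Of 11 genes for processing and decay of plastid RNA, 3 were called higher and 0 lower in myb30 local leaves at 30 min (22.5% and 21.6% of all tested genes), and 5 higher and 2 lower in Col (27.2% and 26.5%). HCF152, an RNA-binding protein needed for processing of a chloroplast transcript, rose by 0.71 in myb30 and 0.55 in Col local leaves, while in systemic leaves its log2 changes were -0.29 in myb30 and -0.57 in Col, all called. PrfB3, which stabilises a chloroplast transcript, rose by 0.37 in myb30 and 0.26 in Col local leaves. The log2 change of RNE, the plastid endonuclease RNase E, was -0.27 in Col local leaves.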

How the data were processed

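RNA-seq libraries (48, in 16 groups of 3) were made from total RNA of Arabidopsis leaves. Reads were trimmed with cutadapt 1.18, checked with FastQC 0.11.7, aligned with STAR 2.4.0.1 to TAIR10 and handled in DESeq2 1.20.0, per the submitters' processing notes. The authors deposited a signal table of read counts per gene, each divided by 1 size factor per library; whole reads were recovered for 100% of 1084756 values above 0, within a relative tolerance of 1e-06, and size factors were 0.776 to 1.17. How duplicated genes and strand were counted is not given in the sources used here.

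Here log2(value + 1) of 19556 genes with a mean of at least 10 was fitted in limma 3.58.1 (R 4.3.3) with 1 mean per group and a trend in the variance, so fold changes of scarce genes are understated. P-values were adjusted by Benjamini and Hochberg over all tested genes in each comparison, and a call is an adjusted p under 0.05. Shares of all tested genes called are no baseline for counts of members at an unadjusted p. The recovered reads were also fitted with edgeR 4.0.16 and DESeq2 1.42.0, for comparison. The fits were tested on simulated data. No 2 replicates agreed within counting noise (chi-square per gene 15.9 to 71.5 over 48 pairs). Same-numbered libraries were taken to deviate together where all 3 correlations were over 0.1. Between leaves at 8 min these were 0.50, 0.58 and 0.50 in myb30, and 0.53, 0.32 and 0.59 in Col. The rule also held between leaves at 2 min in both lines and at 0 min in myb30. It held for the changes of myb30 local leaves at 2 min and of Col systemic leaves at 30 min. Between the lines it held in local leaves at 0 and 2 min and in systemic leaves at 8 min. All main counts are from the unpaired fit, and fits with a block are set beside them. Single members are named for an annotated name or for a called change among the highest or lowest without overlap, and list genes for the smallest p. Roles could not be given to most members, so the planned grouping by role and the planned naming by gene symbol were not made, and 1 member with an annotated name is not reported here. The members and lists were chosen with earlier results of these data known.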

Additional observations from a re-analysis of the deposited data

Results flagged for a closer look

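ATCG00620 was the only member called by limma for a difference between the lines in the change from 0 to 30 min in systemic leaves (interaction of line and time). It had 49.2, 52.4 and 47.0 normalised reads at 30 min against 61.5, 67.0 and 58.8 at 0 min in myb30, a log2 change of -0.33 (adjusted p = 0.189, limma). In Col it had 77.4, 62.9 and 80.9 at 30 min against 44.2, 42.5 and 44.8 at 0 min, a log2 change of 0.73 (adjusted p = 4.18e-04, limma). The libraries of the 2 times do not overlap in either line. The difference between the changes was -1.06 ± 0.22 (SE; adjusted p = 0.0380, limma). Over all 86 members the median of that difference was -0.31. No member was called in this comparison without both libraries in doubt, with those libraries exchanged, or with the compared groups fitted alone.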

How the results depend on the processing

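Under settings other than leaving out 1 library or replicate, 376 results stayed as in the report and 56 did not. Most were counts of called members, taken to stay if within 1.5 times the reported count with the same main direction. The rest were the summed member levels of the 16 groups as percent of nuclear reads, set against percent of all reads in genes. They were taken to stay if within 1 SD. Nuclear reads were nearly all reads in genes, so these results could hardly have moved and say nothing about the normalised sums. Counts of 0 that stayed at 0 are also among the 376. Under edgeR, myb30 local leaves at 2 min had 2 calls. DESeq2 gave 2 there, 2 in Col local leaves at 2 min, 1 between myb30 leaves at 8 min, 1 and 4 between the lines in systemic leaves at 8 and 30 min, and 1 and 3 for line by time at 30 min in local and systemic leaves. A pseudocount of 8 gave 1 for line by time in local leaves at 30 min. No filter on low values gave 0 in myb30 local leaves at 2 min and 0 for line by time in systemic leaves at 30 min.

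Scaling to the nuclear total gave 16 in myb30 local leaves at 30 min, 7 and 33 in Col local leaves at 8 and 30 min, 9 between myb30 leaves at 30 min, 3 and 11 between Col leaves at 8 and 30 min, and 10 and 0 between the lines in local and systemic leaves at 30 min. Scaling to the member sum gave 3, 13 and 22 in myb30 local leaves and 0, 13 and 45 in Col local leaves at 2, 8 and 30 min, and it gave 14 for the 30 min change of Col systemic leaves. It gave 1 and 19 between myb30 leaves and 6 and 21 between Col leaves at 8 and 30 min, 21 and 2 between the lines and 5 and 3 for line by time at 30 min in local and systemic leaves. It also turned 2 members in Col: ATCG00420 was -0.37 at 30 min in local leaves and -0.14 between leaves at 30 min, and ATCG00430 was -0.44 and -0.046.

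The compared groups fitted alone gave 0 in local leaves of myb30 and of Col at 2 min, 14 between myb30 leaves at 30 min, 0 between the lines in local and 0 in systemic leaves at 30 min, and 0 for line by time in systemic leaves at 30 min. The replicate block gave 2 in myb30 local leaves at 2 min, 1 between myb30 leaves at 8 min, 2 between the lines in systemic leaves at 30 min and 1 for line by time in local leaves at 30 min; with leaf pairs as the block, 4 members differed between myb30 and 19 between Col leaves at 8 min. The block moved no other count by over 1.5 times. Exchanging the libraries in doubt gave 1 in myb30 systemic leaves at 8 min and 0 for line by time in systemic leaves at 30 min. Leaving both out gave 2 in Col local leaves at 2 min, 1 in myb30 systemic leaves at 30 min, 3 between myb30 leaves at 8 min, 2 between the lines and 0 for line by time in systemic leaves at 30 min. Leaving out the 3 outlying 0 min libraries, chosen after seeing the data like the leaf pairs, gave 0, 1 and 1 for the first 3 of these. The causes were not tested.

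Leaving out 1 library or replicate gave, in local leaves at 2, 8 and 30 min, 0 to 2, 1 to 12 and 13 to 30 in myb30 and 0 to 3, 1 to 9 and 36 to 51 in Col. For systemic leaves of Col the counts were 0 to 2, 0 to 3 and 14 to 29 at these times, and for those of myb30 0 to 1 at 30 min. Between leaves at 8 and 30 min it gave 0 to 4 and 10 to 32 in myb30 and 0 to 7 and 22 to 41 in Col. Between the lines at 30 min it gave 0 to 22 in local and 0 to 5 in systemic leaves, and for line by time at 30 min 0 to 8 and 0 to 4. A planned fit without duplicated and ribosomal RNA genes was not run, since most members carry no name. Depth is a limit for scarce members, since all members together took at most 0.0779% of a library's reads.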
